A study of Homo sapiens with 2 samples.

Results

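The 38 genes described here encode the human kinetochore and the spindle assembly checkpoint, and their expression was compared between HCT116 cells given an shRNA against RAP1 (shRAP1) and HCT116 cells given a negative-control shRNA (shNC). The genes were chosen by name from the known protein complexes, with earlier results of these data known. No measured value is part of the rule that lists the genes, while their probe sets were chosen by measured intensity. Each gene was represented by the brightest of its probe sets that carry a single gene symbol, which makes 38 genes of 18132 with such a probe set. HCT116 is an established epithelial line from a colorectal carcinoma. The shRAP1 culture received a lentivirus carrying a single hairpin, labelled sh-RAP1-4#, and the shNC culture received the control lentivirus, both at a multiplicity of infection of 20 for 72 h. RNA came from the whole infected culture, and each group held 1 array. A difference therefore has no replicate check, no test and no p-value, and precision is limited by having only these 2 arrays.

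The kinetochore is the protein assembly that links a chromosome to the microtubules of the mitotic spindle. Its inner part, the constitutive centromere-associated network, sits on nucleosomes that contain the histone variant CENP-A. Its outer part holds the MIS12, KNL1 and NDC80 complexes, of which NDC80 grips the microtubule with help from the SKA complex. The checkpoint proteins gather at kinetochores that lack attachment and delay anaphase by holding back the anaphase-promoting complex, while the chromosomal passenger complex, with the kinase Aurora B, corrects faulty attachments. Many of these genes are transcribed mainly in late S phase, G2 and mitosis of dividing cells.

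RAP1 can name TERF2IP, a telomere protein, or the small GTPase genes RAP1A and RAP1B. TERF2IP stood at 47.6% of shNC, RAP1A at 88.0% and RAP1B at 93.3%, and TERF2IP rested on 1 probe set. Of 11 markers of colorectal epithelium 7 passed the floor on dim values, with intensities summed over the 11 of 31908 in shRAP1 and 31145 in shNC, while VIL1, CDX1, CEACAM5 and LGALS4 did not. The leukocyte markers PTPRC, CD3E, CD14 and LYZ and the 5 fibroblast markers did not pass, and of 4 endothelial markers VWF and KDR did, at 125 and 87.6 in shRAP1 against 129 and 78.8 in shNC. The polyadenylated spike-in RNAs, which are added before labelling, differed between the arrays by medians of −0.41 for lys, −0.30 for dap, −0.29 for phe and 0.41 for thr on the log2 scale. Controls added at hybridisation differed by medians between −0.027 and −0.0024. The spike-in differences are as large as those of the members given next, and their part in them was not tested.

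Most kinetochore and checkpoint genes had slightly lower values in shRAP1. Of the 38 genes, 37 passed the floor, which asks that the higher of the 2 values reach the median of all probe sets, 78.0 in intensity. Of these 37, 31 were lower and 6 higher in shRAP1, or 83.8% lower and 16.2% higher, against 46.8% lower and 53.2% higher among all 10437 genes past the floor. The median difference, shRAP1 minus shNC on the log2 scale, was −0.11 for the 37 members and 0.010 for all genes tested. In all, 6 members were lower by at least 1.2-fold, or 16.2% against 3.58% of all genes, and 0 were higher by that size, against 4.96% of all genes. No member differed by 1.5-fold, a size at which 0.172% of all genes were lower and 0.211% higher, or by 2-fold, a size that 0.0192% of genes reached in each direction. In RNA from a whole culture, fewer cells in the phases that express these genes and less RNA in each such cell cannot be told apart.

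The size of these differences lies close to the spread within the arrays. Over all genes past the floor the SD of the difference was 0.16, and the central 95% ran from −0.29 to 0.32. The SD of the disagreement between the 2 brightest probe sets of a gene was 0.14 over 6135 genes and 0.16 over the 19 members that have several probe sets past that floor. Against the 500 genes nearest in mean intensity, 32 of 37 members lay below the local median, 16 differed by more than the local SD and 6 by more than 2 SD. Those 6 were the members lower by 1.2-fold. Members with a single probe set past the floor had a median of −0.15, with 17 of 18 lower, against a median of 0.021 and 1885 of 4302 lower among all genes with 1 such probe set. The 19 with several probe sets had a median of −0.095 on the brightest, with 14 lower, and of −0.038 on the second brightest, with 13 lower. Among all 6135 genes with several probe sets, the brightest had a median of 0.0039, with 2999 lower, and the second brightest of −0.0054, with 3170 lower. For 10 of the 19, or 52.6%, every probe set past the floor was lower, against 31.0% of all such genes, and for 2 every one was higher, against a background of 29.2%.

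**Figure D1:**
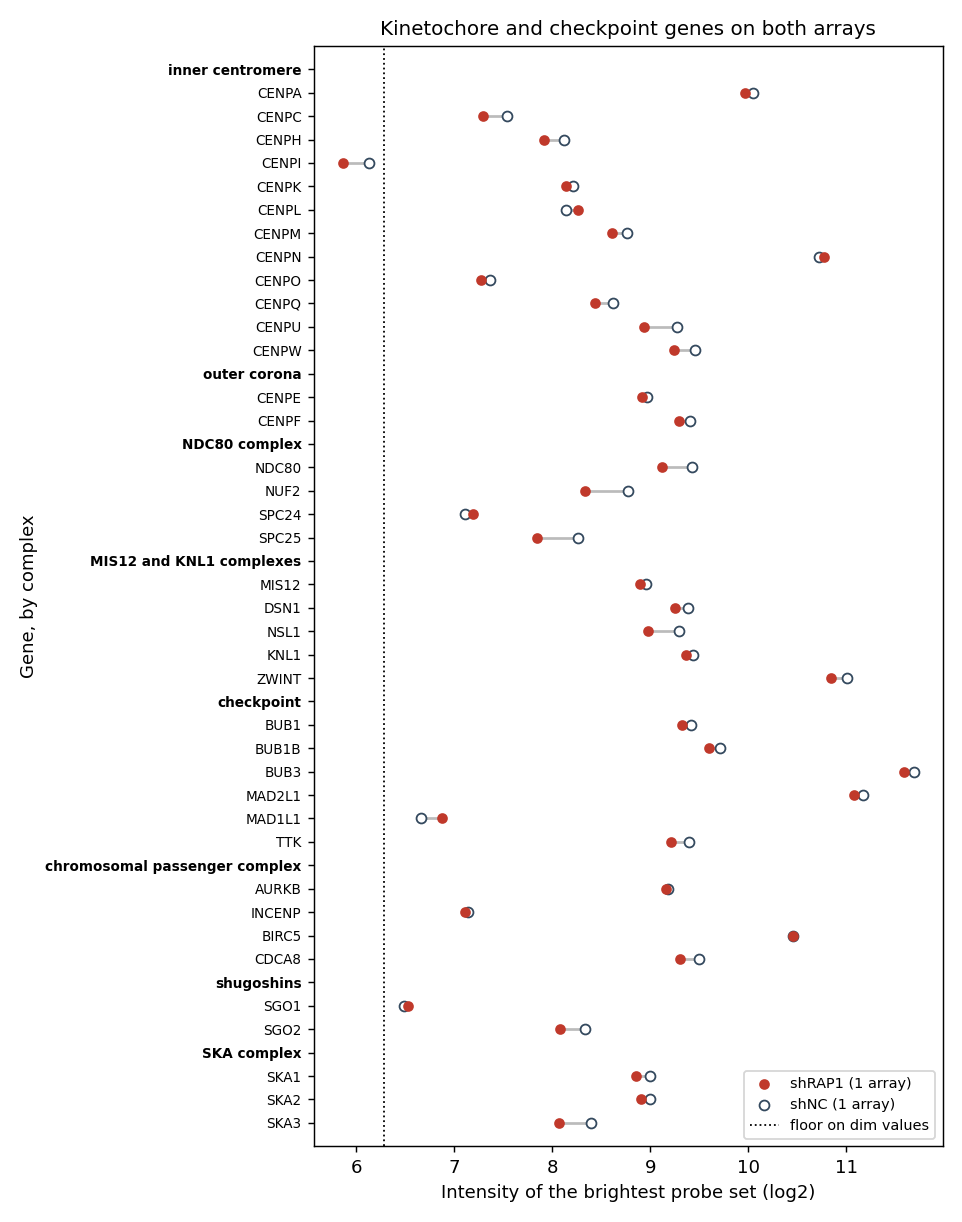
Log2 intensity of the brightest probe set of each of the 38 genes on the shRAP1 array (filled) and the shNC array (open), grouped by complex, with the floor on dim values as a dotted line. The gaps are widest for NUF2 and SPC25, the BIRC5 points coincide, and both CENPI points lie below the floor. Positions of different genes along the axis cannot be compared as levels, since probe sets differ in brightness.

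The NDC80 complex had the lowest median of the complexes, −0.36, with 3 of its 4 subunits lower by more than 1.2-fold. This complex is a rod that binds microtubules with the NDC80 and NUF2 end and docks on the inner kinetochore with the SPC24 and SPC25 end. NUF2 read 324 in shRAP1 and 439 in shNC, or 73.8% of shNC. Its difference of −0.44 was the largest in size among the members, with 49 of 10437 genes lower still, and was 2.77 times the SD of genes of similar intensity. SPC25 read 230 in shRAP1 against 308 in shNC, a difference of −0.42. NDC80, the subunit that names the complex, read 558 in shRAP1 against 688 in shNC, a difference of −0.30. Of the dimerisation partners at the docking end, SPC25 was lower and SPC24 was not. SPC24 read 146 in shRAP1 against 138 in shNC, a difference of 0.078, and a second probe set of it past the floor showed 0.0011. Genes of similar intensity to SPC24 had a median difference of 0.059 and an SD of 0.16, so SPC24 lay close to them. The 3 lower subunits rest on 1 probe set each, so no second probe set past the floor checks them.

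The promoters of these 4 subunits are shown because the subunits are built into the same rod while only 3 of them were lower. The runs are the 150 bases before the transcription start, 5′ to 3′ on the gene's strand, from RefSeq on GRCh38.p14, with every CCAAT box in capitals (CCAAT, or ATTGG for the other strand). CCAAT is the motif of the factor NF-Y, which many promoters of mitotic genes carry. NDC80 is at chr18:2571407-2571556 on the plus strand, NUF2 at chr1:163321804-163321953 on the plus strand, SPC25 at chr2:168890431-168890580 on the minus strand and SPC24 at chr19:11155783-11155932 on the minus strand.
NDC80: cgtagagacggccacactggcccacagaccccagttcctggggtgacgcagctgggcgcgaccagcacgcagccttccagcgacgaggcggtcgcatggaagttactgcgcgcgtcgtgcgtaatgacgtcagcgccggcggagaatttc
NUF2: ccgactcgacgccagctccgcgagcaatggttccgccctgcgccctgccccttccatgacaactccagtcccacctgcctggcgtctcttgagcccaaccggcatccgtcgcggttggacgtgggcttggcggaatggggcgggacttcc
SPC25: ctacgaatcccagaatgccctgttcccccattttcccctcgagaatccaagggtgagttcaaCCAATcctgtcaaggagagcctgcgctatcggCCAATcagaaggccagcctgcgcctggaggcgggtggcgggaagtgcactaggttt
SPC24: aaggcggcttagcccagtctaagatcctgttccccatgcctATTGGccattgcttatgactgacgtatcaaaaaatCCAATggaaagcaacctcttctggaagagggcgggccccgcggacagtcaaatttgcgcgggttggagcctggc
The NDC80 and NUF2 runs hold no CCAAT, while those of SPC25 and SPC24 hold 2 each. Over the 250 bases before the start, CCAAT on either strand was found in 23 of 35 member promoters (65.7%) and in 32.0% of all 35116 promoters. The table holds promoters for 31 of the 38 genes, some with more than 1 start.

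The cell cycle genes homology region (CHR) is a hexamer near the start of many genes of G2 and mitosis, bound by complexes of the MuvB core that repress these genes in resting cells and activate them in dividing ones. TTTGAA and TTCGAA were searched on both strands. In the 250 bases before the start, the planned window, 8 of 35 member promoters held either hexamer in full (22.9%), against 14.3% of all promoters. With the 50 bases after the start added, a window chosen after the first result was seen, the share was 54.3% of member promoters and 16.4% of all. Within 50 bases on either side of the start it was 18 of 35 (51.4%) against 5.01%. At that distance 17 of the 31 genes held a hexamer, 4 of the 6 genes lower by 1.2-fold among them. The 30 bases around the hexamer, which is in capitals, are shown for those 4 genes and for 4 members of the checkpoint and passenger groups with smaller differences. TTCAAA is TTTGAA read on the other strand. By gene, the sites lie at chr1:163321958-163321987 (NUF2), chr2:168890416-168890445 (SPC25), chr13:21176538-21176567 (SKA3), chr18:2571542-2571571 (NDC80), chr2:110678045-110678074 (BUB1), chr15:40161034-40161063 (BUB1B), chr1:37692481-37692510 (CDCA8) and chr11:62123989-62124018 (INCENP), on the plus strand for NUF2, NDC80, BUB1B, CDCA8 and INCENP and on the minus strand for SPC25, SKA3 and BUB1.
NUF2: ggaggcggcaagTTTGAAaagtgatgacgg
SPC25: aagtgcactaggTTTGAAatcggaaagttg
SKA3: ccggcgccgagaTTCAAActagtggcggga
NDC80: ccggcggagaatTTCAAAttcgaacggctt
BUB1: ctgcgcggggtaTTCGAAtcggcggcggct
BUB1B: gggaccgttaaaTTTGAAacttggcggcta
CDCA8: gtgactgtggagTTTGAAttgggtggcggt
INCENP: tgagccttcagtTTTGAAaatcatagtttt
In NUF2 the hexamer begins 17 bases after the start, and in SPC25, SKA3 and NDC80 it begins 3 bases before it. In BUB1 it begins 2 bases after the start, in INCENP 10 before, and in BUB1B and CDCA8 23 before. Of the 17 genes, CENPA, CENPO, CENPW, CENPF, ZWINT, MAD2L1, SKA1, SGO1 and CENPN are not printed. SGO1 has TTCGAA 3 bases before the start, and CENPN has TTTGAA 4 bases after it. SGO1 and CENPN were higher in shRAP1, at 0.039 and 0.046, and the other genes not printed were lower. The TTCAAA of NDC80 is followed directly by TTCGAA, printed in lower case. In CDCA8 the last base of the hexamer is also the first of an ATTGG. The 300 bases of SPC24, CENPU and NSL1 held neither hexamer. A hexamer counted in the planned 250 bases only if it lay wholly inside them. The sites of SPC25, SKA3, NDC80 and SGO1 that span the start therefore did not count. SPC25 was counted there for another TTTGAA, farther before the start. In the planned 250 bases, the 7 members with a whole hexamer had a median difference of −0.16 with 7 lower. The 23 measured members without a whole hexamer there, NDC80, SKA3 and SGO1 among them, had a median of −0.10 with 19 lower. The 18 members with a hexamer in the 300 bases had a median difference of −0.12 with 16 lower, and the 12 measured members without it had a median of −0.080 with 10 lower. Among all genes tested 46.8% were lower, and these splits were not tested. The hexamers are matches of letters, and binding was not measured.

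**Figure D2:**
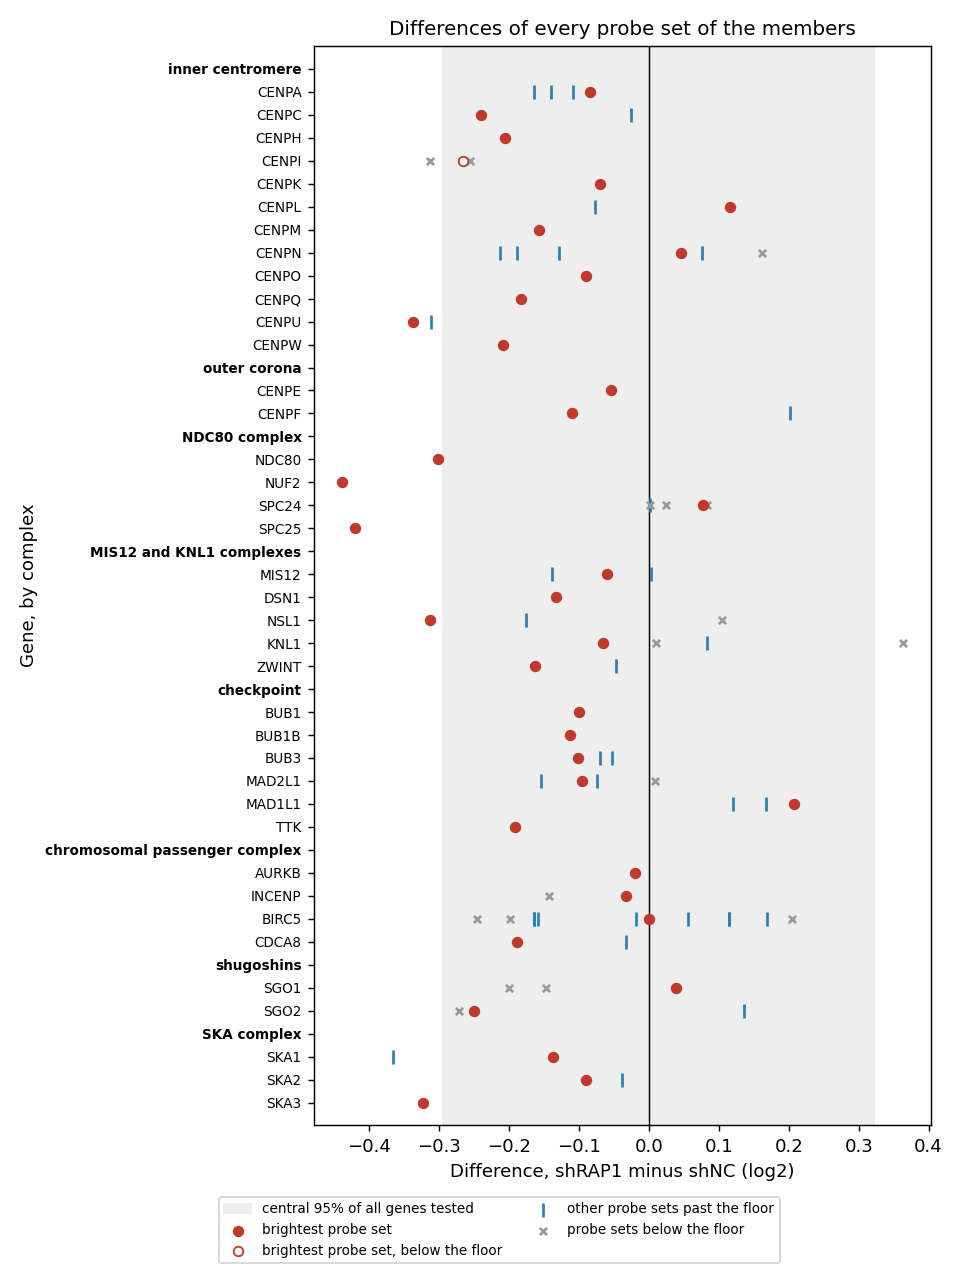
Difference of every probe set of the 38 genes, shRAP1 minus shNC in log2 units, with the brightest probe set as a filled circle (open where it is below the floor), other probe sets past the floor as bars and those below it as crosses. The shaded band spans the central 95% of all genes tested, from −0.29 to 0.32, and 6 brightest probe sets past the floor lie to its left. Probe sets past the floor lie on both sides of 0 for BIRC5, CENPN, CENPL, CENPF, MIS12, KNL1 and SGO2.

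The group labelled inner centromere holds CENPA and genes of the constitutive centromere-associated network, the inner part of the kinetochore. In this group, 9 of 11 measured genes were lower, and the median was −0.16. CENPU, a subunit of the CENP-O group that recruits the kinase PLK1, read 491 in shRAP1 against 620 in shNC, a difference of −0.34, and its other probe set was at −0.31. Both probe sets of CENPU thus passed the 1.2-fold size. CENPC, which connects CENP-A nucleosomes with the MIS12 complex, read 157 in shRAP1 against 186 in shNC, a difference of −0.24, but its other probe set was at −0.026. CENPW, the histone-fold partner of CENPT, read 607 in shRAP1 against 702 in shNC, a difference of −0.21. CENPH, of the group that bridges inner and outer kinetochore, read 241 against 278 in shNC, also at −0.21. Those 4 genes hold the lower end of the group.

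Next in size came CENPQ, the CENPU partner, at −0.18 (346 in shRAP1 and 393 in shNC), and CENPM, a GTPase-like subunit, at −0.16 (390 in shRAP1 and 435 in shNC). CENPO, at −0.091, and CENPK, at −0.070, had 1 probe set each. CENPA, the centromeric histone itself, read 999 in shRAP1 against 1060 in shNC, a difference of −0.085, and all 4 of its probe sets were lower, between −0.16 and −0.085. CENPN and CENPL, a heterodimer that recognises CENP-A nucleosomes, were the higher members of the group on their brightest probe sets. CENPL was at 0.12, against −0.077 on its dimmer probe set. CENPN was at 0.046, with 5 probe sets past the floor between −0.21 and 0.076, so its direction depends on the probe set. CENPI was not measured past the floor. Its brightest probe set read 58.3 in shRAP1 against 70.0 in shNC, both below the floor, and its dimmer probe sets were at −0.26 and −0.31.

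All 5 genes of the MIS12 and KNL1 complexes, which form the platform for NDC80 and for the checkpoint kinases, were lower, with a median of −0.13. NSL1, a MIS12 complex subunit, read 504 in shRAP1 against 626 in shNC, a difference of −0.31, and −0.18 on the next brightest probe set. ZWINT, the KNL1 partner, read 1842 in shRAP1 against 2063 in shNC, a difference of −0.16 with its other probe set at −0.047. DSN1, the subunit that Aurora B phosphorylates, was at −0.13 on 1 probe set. The measured genes DSN1, CENPH, CENPL, CENPQ and TTK have only probe sets of the _x_at or _s_at kind past the floor, whose probes can match other transcripts. Of the 5 genes, NSL1 alone passed 1.2-fold. KNL1, the scaffold for BUB1 and BUB3, was at −0.066 and MIS12 at −0.059, and each had another probe set above 0.

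The SKA complex, a microtubule-binding trimer loaded through NDC80, had all 3 genes lower and a median of −0.14. SKA3 read 269 in shRAP1 against 337 in shNC, a difference of −0.32 on 1 probe set. SKA1 read 464 against 510 in shNC, a difference of −0.14, and its dimmer probe set was at −0.37. SKA2 was at −0.091 and −0.038 on its 2 probe sets, the smallest differences of the trimer. With the median of all probe sets of a gene, the median of the complex was −0.25.

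Of the 6 checkpoint genes 5 were lower and MAD1L1 was higher, with a median of −0.10, and none passed 1.2-fold. TTK, the kinase MPS1 that starts checkpoint signalling, read 591 in shRAP1 against 675 in shNC, a difference of −0.19, the lowest of the group. The kinase gene BUB1 was at −0.10, the pseudokinase gene BUB1B at −0.11 and BUB3, their shared binding partner, at −0.10 with all 3 probe sets lower. MAD2L1, the protein that locks onto CDC20, read 2156 in shRAP1 against 2303 in shNC, a difference of −0.095 with its 3 probe sets past the floor between −0.15 and −0.074. MAD1L1, the scaffold that converts MAD2, went the other way. It read 117 in shRAP1 against 102 in shNC, a difference of 0.21, and its 3 probe sets lay between 0.12 and 0.21. MAD1L1 lay near the floor, where the genes of similar intensity had an SD of 0.18.

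On the brightest probe sets the chromosomal passenger complex had the median nearest to 0, −0.026. With genes taken as medians over their probe sets it was also −0.026, while those of the corona and the shugoshins, at −0.0041 and −0.0090, lay nearer to 0. AURKB, the Aurora B kinase, read 571 in shRAP1 and 579 in shNC, a difference of −0.020. INCENP, the scaffold that activates the kinase, was at −0.032, and BIRC5, the survivin subunit that reads a histone mark, was at 0.0004, with 1402 on both arrays. For BIRC5 the 9 probe sets past the floor ran from −0.16 to 0.17, on both sides of 0. CDCA8, the borealin subunit, was the lowest of the 4 at −0.19 (633 in shRAP1 and 721 in shNC), with its other probe set at −0.032. The shugoshins, which guard centromeric cohesin, were split. SGO2 was at −0.25 and 0.14 on its 2 probe sets past the floor, and SGO1 was at 0.039 on values of 92.2 in shRAP1 and 89.7 in shNC, close to the floor. Of the corona proteins, the kinesin CENPE was at −0.054 on 1 probe set and CENPF, which binds dynein regulators, at −0.11 with its other probe set at 0.20.

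Between complexes, medians of the brightest probe sets thus ran from −0.36 for NDC80 to −0.026 for the passenger complex. With 1 array a group and 2 to 11 measured genes a complex, no test of a difference between complexes was possible. The ranges overlap, since SPC24 lies above every passenger complex gene and CDCA8 lies below the median of the checkpoint.

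**Figure D3:**
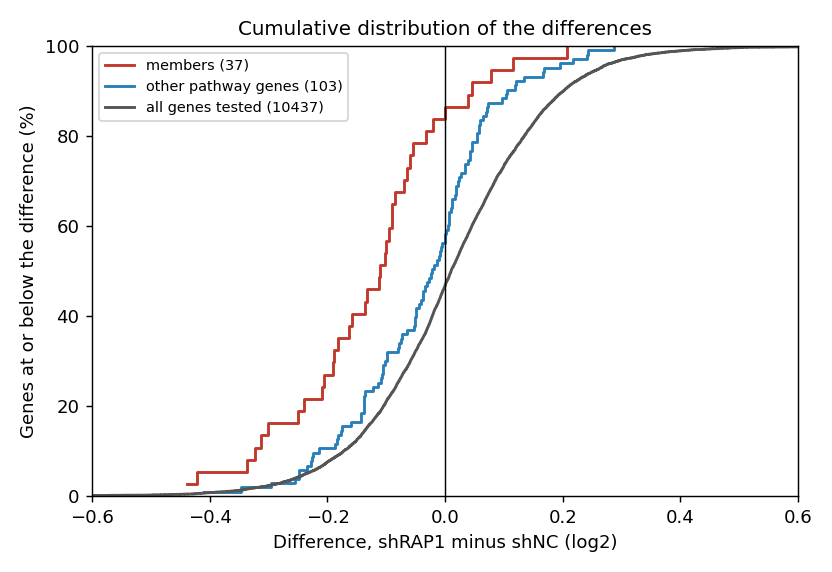
Share of genes (y axis, percent) at or below each difference, shRAP1 minus shNC on the log2 scale (x axis), for the 37 measured members, 103 other measured genes of the pathway and all 10437 genes tested. The members' curve lies to the left of the others over most of its length and crosses 0 at 83.8%, against 46.8% for all genes.

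Other genes of chromosome segregation, taken from 8 lists by function, were split more evenly. Of 103 measured genes of 108 outside the members, 59 were lower and 44 higher, against 46.8% lower and 53.2% higher among all genes tested. Their median was −0.022, against 0.010 for all genes. By 1.2-fold, 3 of the 103 were lower and 1 higher, against 3.58% and 4.96% of all genes. The difference between these genes and the members was not tested. The 6 measured subunits of the inner kinetochore and MIS12 complex outside the member list had a median of 0.0040, with PMF1, the remaining MIS12 complex subunit, at 0.17 and ITGB3BP at 0.019. The MIS12 complex thus held 3 lower genes in the member list and this higher one outside it. The CENP-A deposition list had 5 of 8 genes lower and a median of −0.048, with the remodelling factors RSF1 at 0.29 and SMARCA5 at −0.21. In the corona and dynein adaptor list 5 of 10 were lower, with ZW10, a dynein recruiter at kinetochores, at −0.25 and NDE1, a dynein regulator, at 0.22.

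Downstream of the checkpoint, 14 of 22 genes of the anaphase-promoting complex and its regulators were lower, with a median of −0.026. TRIP13, the ATPase that remodels MAD2 and so takes part in both building and ending the checkpoint signal, read 588 in shRAP1 against 781 in shNC. Its difference of −0.41 was close to that of NUF2 and SPC25, and its other probe set was at −0.50. FZR1, the late mitotic activator, was at 0.24 with probe sets of both signs, and the subunits ANAPC15 and CDC26 were at −0.22 and −0.18. Cohesin genes were lower in 9 of 13 cases with a median of −0.073, led by the acetyltransferase ESCO2 at −0.35 and the ring subunit SMC3 at −0.23 on its brightest of 3 probe sets, which reached 0.045. Condensin genes, with 6 of 8 lower, had a median of −0.16, which is lower than that of the members as a whole, and ran from NCAPH2 at −0.25, with its other probe set at 0.053, to NCAPD2 at 0.24.

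Mitotic kinases and phosphatases had 10 of 16 genes lower and a median of −0.0076, with CCNB1, the mitotic cyclin, at −0.23 and the phosphatase scaffold PPP2R1A at 0.20. Among 21 transcriptional regulators of such genes, 9 stood lower and 12 higher, and the median was 0.0045. FOXM1, which drives G2 and mitosis genes, read 226 in shRAP1 against 277 in shNC, a difference of −0.30 with all 3 probe sets lower. LIN9, of the MuvB core that binds the CHR, was at −0.25 on values of 81.7 in shRAP1 and 97.5 in shNC, close to the floor. The atypical E2F genes E2F7 and E2F8 were at 0.17 and −0.16.

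**Figure D4:**
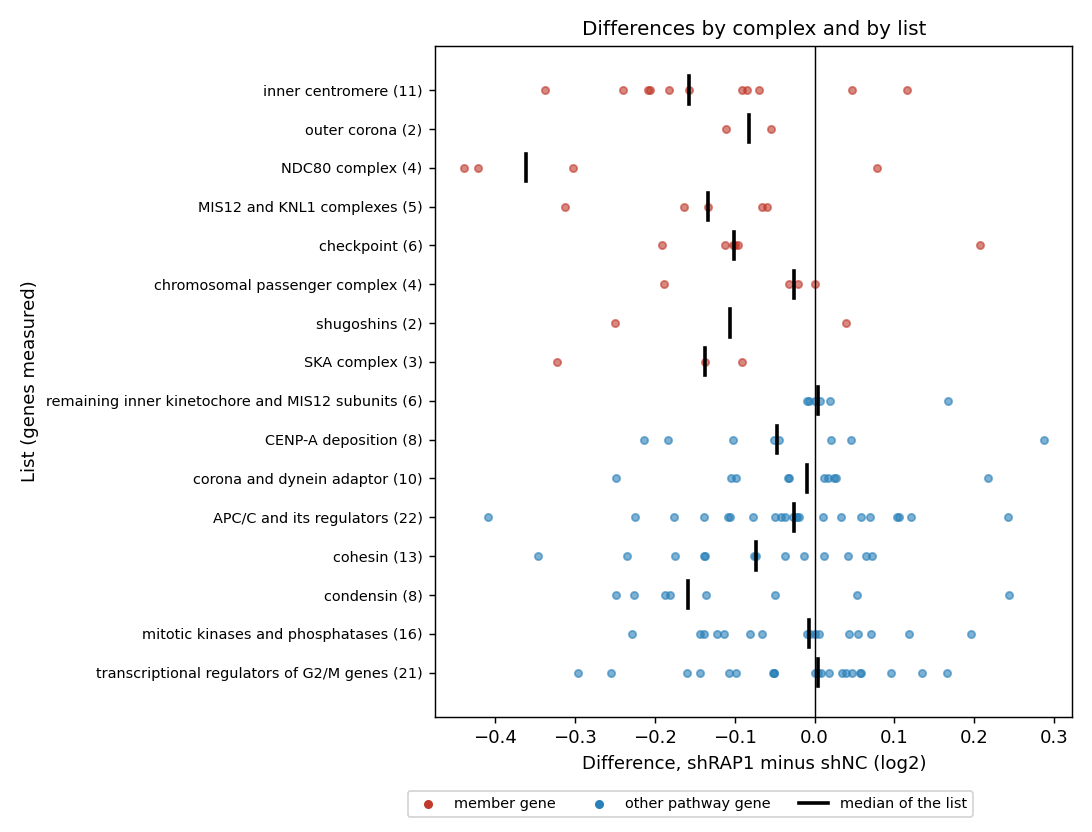
Differences of single genes (points), shRAP1 minus shNC on the log2 scale, for the 8 member complexes (red) and the 8 lists of other pathway genes (blue), and a black line at each median. The NDC80 complex has the lowest median, −0.36, and the remaining inner kinetochore and MIS12 subunits lie around 0 apart from PMF1.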

How the data were processed

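RNA of 2 HCT116 cultures, shRAP1 and shNC, was labelled with a 3′ in vitro transcription kit, per the labels' protocols. The authors deposited 1 intensity value per probe set and array on the linear scale; the submitters' processing notes name RMA, which quantile-normalises arrays, so differences are relative to the other genes. Neither RMA's version nor the genome build is given in the sources used. The planned comparison was of log2 values, which were taken here with no pseudocount. The platform annotation gave 1 symbol to 44988 of the 49293 probe sets that are not controls. All 38 members matched RefSeq by gene identifier. Members, complexes and lists were chosen with earlier results of these data known. Named were all members, and of each other list the 2 measured genes with the largest size, or 4 for the anaphase-promoting complex and the transcriptional regulators; markers and any other gene were named after their values were seen. Promoters came from RefSeq (GRCh38.p14). Alternatives changed the probe set chosen, those admitted (names ending in _x_at or _s_at can match other transcripts), the floor, the centring and the summary. The computation was tested on simulated data. Python 3.11.15, numpy 2.4.6, pandas 2.3.3, scipy 1.17.1, statsmodels 0.14.6 and matplotlib 3.10.9 were used.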

Additional observations from a re-analysis of the deposited data

How the results depend on the processing

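No paired analysis was possible because each group holds 1 array. Of 263 differences of single members under 8 alternatives, 13 moved by more than the SD between probe sets of a gene (0.14), and of these CENPL, CENPN, CENPF, KNL1 and SGO2 changed sign with the probe set used. The median of all members was −0.038 on the second brightest probe set, which 19 members have, and −0.13 with the floor at the 75th percentile. On the second brightest probe set the medians were −0.077 for the inner centromere, 0.20 for the corona (1 gene), 0.0011 for NDC80 (SPC24 alone) and 0.14 for the shugoshins (1 gene). The shugoshin median was 0.087 without _x_at and _s_at probe sets, −0.0090 with genes taken as medians over their probe sets and −0.25 with the higher floor. With a gene taken as the median over its probe sets the SKA median was −0.25 and the corona median −0.0041. On the brightest probe sets the mean of the NDC80 complex was −0.27. On the second brightest probe set, 13 of 19 members were lower (68.4%), against 51.7% of all genes. By 1.2-fold 2 of these 19 were lower, against 307 of 6135 genes. With the higher floor, 25 of 27 members were lower (92.6%) and 2 higher, against 52.2% of all genes lower. On the brightest probe sets 0 of 37 were lower by 1.5-fold or by 2-fold, against 0.172% and 0.0192% of all genes. Centring on a lowess trend or on the median left 32 of 37 lower. Of member promoters, 54.3% held a CHR hexamer in 300 bases and 51.4% within 50 bases of the start, windows chosen after seeing the data. The causes were not tested. Signal near the floor limits SPC24, MAD1L1, SGO1 and INCENP.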
